A study of Mus musculus with 4 samples.

Results

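The genes described here are 10 components of the unfolded protein response (UPR) and the folding machinery of the endoplasmic reticulum (ER): Xbp1, Atf4, Ddit3, Hspa5, Dnajb9, Sdf2l1, Herpud1, Ern1, Edem1 and Pdia4. They were chosen by symbol, and each symbol matched 1 of the 31054 features in the gene table. They were followed in single stromal vascular cells of the gonadal fat pad, which are the non-adipocytes released when the tissue is digested. All 4 libraries came from 18-month-old male p16-CreERT2/R26-LSL-tdTomato mice given tamoxifen, in which tdTomato marks cells that had expressed Cre from the p16 (Cdkn2a) promoter at the time of tamoxifen, together with their progeny. The sorts were labelled CD45- Tom+ and CD45- Tom-, then CD45+ Tom+ and CD45+ Tom-, with 1 library each, and values for the 4 libraries are always given in this order. The number of mice behind each library is not given in the sources used here, and with 1 library per sort no test between sorts was run.

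Secreted and membrane proteins are folded in the ER, and unfolded protein there is sensed by the kinase and nuclease IRE1 (encoded by Ern1), the kinase PERK (Eif2ak3) and the membrane-bound factor ATF6. IRE1 splices the Xbp1 mRNA so that it encodes an active transcription factor for chaperones, translocation and degradation genes, whereas PERK slows translation and favours that of ATF4, which acts on amino acid and stress genes including Ddit3 (CHOP). Plasma cells, which export immunoglobulin, depend on XBP1 for their secretory apparatus, and fibroblast-like adipose progenitors export collagen, which needs chaperones and hydroxylases of its own.

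The promoters are printed first because motifs bound by the UPR factors were defined in promoters of this family. The windows hold the 250 bases before the RefSeq transcription start on GRCm38.p6, written 5′ to 3′ on the gene's own strand, and RefSeq gave a window for all 10 genes. Hspa5, the ER HSP70 chaperone BiP, and Herpud1, a scaffold of ER-associated degradation, are shown because each held a full ER stress response element, and Sdf2l1, Edem1 and Pdia4 because their levels separated the cell classes described afterwards. Capitals mark every match on either strand to the letters given after the sequences. Xbp1 levels also separated the classes, and its window, which held no match to these letters, is not printed.
Hspa5, chr2:34771840-34772089, plus strand: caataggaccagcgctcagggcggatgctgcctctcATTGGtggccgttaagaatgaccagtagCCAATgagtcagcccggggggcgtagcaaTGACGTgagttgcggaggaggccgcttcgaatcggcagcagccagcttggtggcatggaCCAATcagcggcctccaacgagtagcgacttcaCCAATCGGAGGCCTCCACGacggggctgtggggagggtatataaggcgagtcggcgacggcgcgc
Herpud1, chr8:94386179-94386428, plus strand: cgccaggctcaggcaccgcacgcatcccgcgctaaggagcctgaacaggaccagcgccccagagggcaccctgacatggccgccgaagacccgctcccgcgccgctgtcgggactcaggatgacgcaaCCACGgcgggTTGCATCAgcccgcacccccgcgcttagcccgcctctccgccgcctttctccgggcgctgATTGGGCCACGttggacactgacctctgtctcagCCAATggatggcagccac
Sdf2l1, chr16:17132384-17132633, minus strand: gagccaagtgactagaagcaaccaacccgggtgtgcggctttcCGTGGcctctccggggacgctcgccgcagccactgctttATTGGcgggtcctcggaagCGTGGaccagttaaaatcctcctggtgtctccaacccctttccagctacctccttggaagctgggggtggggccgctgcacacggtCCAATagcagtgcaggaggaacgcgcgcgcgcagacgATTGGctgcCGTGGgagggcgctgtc
Edem1, chr6:108828391-108828640, plus strand: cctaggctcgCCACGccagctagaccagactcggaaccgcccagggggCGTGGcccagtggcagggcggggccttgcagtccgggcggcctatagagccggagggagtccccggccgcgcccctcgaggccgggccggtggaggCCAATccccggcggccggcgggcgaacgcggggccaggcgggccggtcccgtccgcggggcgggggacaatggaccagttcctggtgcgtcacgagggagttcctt
Pdia4, chr6:47813513-47813762, minus strand: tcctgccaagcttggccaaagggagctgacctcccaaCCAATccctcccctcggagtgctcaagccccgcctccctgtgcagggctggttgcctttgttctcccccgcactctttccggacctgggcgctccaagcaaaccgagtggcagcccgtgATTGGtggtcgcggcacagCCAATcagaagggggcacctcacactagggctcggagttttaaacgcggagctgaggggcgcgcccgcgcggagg
The ER stress response element (ERSE), searched as CCAAT and CCACG with 9 bases of any kind between, was found in Hspa5 alone among the 10 genes, 65 to 47 bases before the start, and in 0.113% of all 32851 promoter windows. The element ERSE-II, searched as ATTGG, 1 base of any kind and CCACG, was found in Herpud1 alone, 52 to 42 bases before the start, and in 0.0304% of all windows. The UPR element TGACGTGG was in none of the 10 windows and in 0.563% of all windows, and its shorter core TGACGT was in Hspa5 (6.47% of all windows). An ATF4-type element, TGATGNAA, matched Herpud1 on the minus strand 112 to 105 bases before the start, and was in 3.45% of all windows. The component letters were common: CCAAT occurred in 8 of the 10 windows and 33.8% of all, and CCACG in 7 of the 10 and 28.3% of all. Both short motifs lie within ERSE and ERSE-II, so these counts overlap. A match describes letters and not a bound site.

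After filters on genes and mitochondrial UMIs (unique molecular identifiers, counted RNA molecules) and removal of likely doublets, 3886, 3674, 1927 and 4391 cells remained in the 4 libraries, from 64083756 to 139397501 UMIs per library as deposited. The tdTomato transcript followed the labels, at 713 and 714 CPM (a gene's UMIs scaled to a common total over the same cells) in the Tom+ libraries and 15.8 and 18.7 CPM in the Tom- libraries. Ptprc, which encodes CD45, did not, lying between 157 and 223 CPM in all 4, and every library held both leukocytes and stromal cells, so the CD45 sort is written only as a label. The Cdkn2a transcript lay at 6.78, 7.10, 7.30 and 7.57 CPM in the library order given above, so it did not follow the Tom labels either. Barcodes were shared between every pair of libraries, from 26 to 4394, but only 1 to 16 of a pair passed the filters in both. Immunoglobulin genes took 26.0% and 26.5% of UMIs in the Tom+ libraries against 1.19% and 1.61% in the Tom- libraries, a difference that recurs beside the members' values.

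Cell classes were built from clusters and named from marker genes. The clusters were made without the 10 genes, the related gene lists, tdTomato and the variable, diversity and joining segments of immunoglobulin. Immunoglobulin constant genes and Jchain were not left out of the clustering. The plasma cell-like class held 1348 cells, 828, 38, 425 and 57 in the library order given above. It had 9 of 10 plasma cell markers raised, Jchain at 23099 to 28729 CPM, and nearly only IgM as its heavy chain (823 of 828, 38 of 38, 423 of 425 and 57 of 57 cells). The class of adipose progenitor cells (APC-like) held 266, 1534, 108 and 1715 cells, with Pdgfra at 416 to 493 CPM and Col1a1, a fibrillar collagen chain, at 5868 to 7356 CPM. In plasma cell-like cells Pdgfra lay at 0.805 to 7.38 CPM and Col1a1 at 6.99 to 37.7 CPM. Because the classes are cuts of the same cells, differences between them are described without a test, and all intervals are 95% and cover counting error only.

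In plasma cell-like cells, 5 of the 10 genes (Xbp1, Sdf2l1, Herpud1, Edem1 and Pdia4) were at least 2-fold higher than in APC-like cells in each of the 4 libraries. Over all genes of at least 5 CPM in either class, 4.48% were that much higher in every library and 56.1% that much lower. None of the 10 genes was 2-fold lower. The master chaperone Hspa5, the co-chaperone Dnajb9 and the PERK-branch factor Ddit3 were at like CPM in both classes. Atf4, also of the PERK branch, was lower in each of the 4 libraries by less than 2-fold, while Ern1 was higher by less than 2-fold in 1 library. The classes differ in what fills the library: immunoglobulin took 48.0% to 55.0% of plasma cell-like UMIs, and the median log2 ratio of all 10235 genes compared was -1.58 in CPM and -0.55 when immunoglobulin genes and Jchain were left out of the total. Against that shift, the median log2 ratio of the 10 genes was 1.84 in CPM and 2.85 without immunoglobulin.

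Xbp1, which encodes the factor that IRE1 activates, was measured at 1306, 1338, 1259 and 1341 CPM in plasma cell-like cells and at 286, 223, 279 and 218 CPM in APC-like cells, in the library order given above. The classes did not overlap, and the fold was 5.23 as the median over libraries and 4.51 to 6.15 across them. The 3′ counts do not separate the spliced from the unspliced Xbp1 mRNA. Ern1, the IRE1 sensor itself, was sparse, at 22.0, 31.7, 21.8 and 33.5 CPM in plasma cell-like and 12.1, 10.3, 8.49 and 10.6 CPM in APC-like cells. Its values did not overlap between the classes either, with folds of 1.81 to 3.15. The fold reached 2 in each library when immunoglobulin was left out of the total, and then 6 of the 10 genes did so against 9.96% of all genes higher and 29.3% lower.

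The genes with the largest differences act in chaperoning and disposal of misfolded protein. Edem1, a lectin-like protein that hands misfolded glycoproteins to degradation, was at 549, 735, 571 and 729 CPM in plasma cell-like cells and at 93.8, 41.8, 62.0 and 41.4 CPM in APC-like cells. Its fold, 12.7 as the median, ran from 5.86 in the library labelled CD45- Tom+ to 17.6 in that labelled CD45- Tom-. The spread came from both sides, since Edem1 was lower in plasma cell-like and higher in APC-like cells of the Tom+ libraries. Sdf2l1, a partner of the BiP chaperone cycle, was at 326, 375, 361 and 392.4 CPM against 42.1, 29.0, 42.4 and 30.0 CPM, 10.5-fold as the median (7.73 to 13.1). Herpud1 was at 663, 602, 654 and 660 CPM against 111, 76.2, 104 and 71.4 CPM, 7.06-fold as the median (5.98 to 9.24). Herpud1 was the steadiest of these in plasma cell-like cells, its 4 values lying between 602 and 663 CPM. Pdia4, a disulfide isomerase, was at 531, 774, 533 and 688 CPM against 147, 126, 146 and 122 CPM, 4.53-fold as the median (3.62 to 6.13). For all of these genes the plasma cell-like and APC-like values stood apart in every library.

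**Figure D1:**
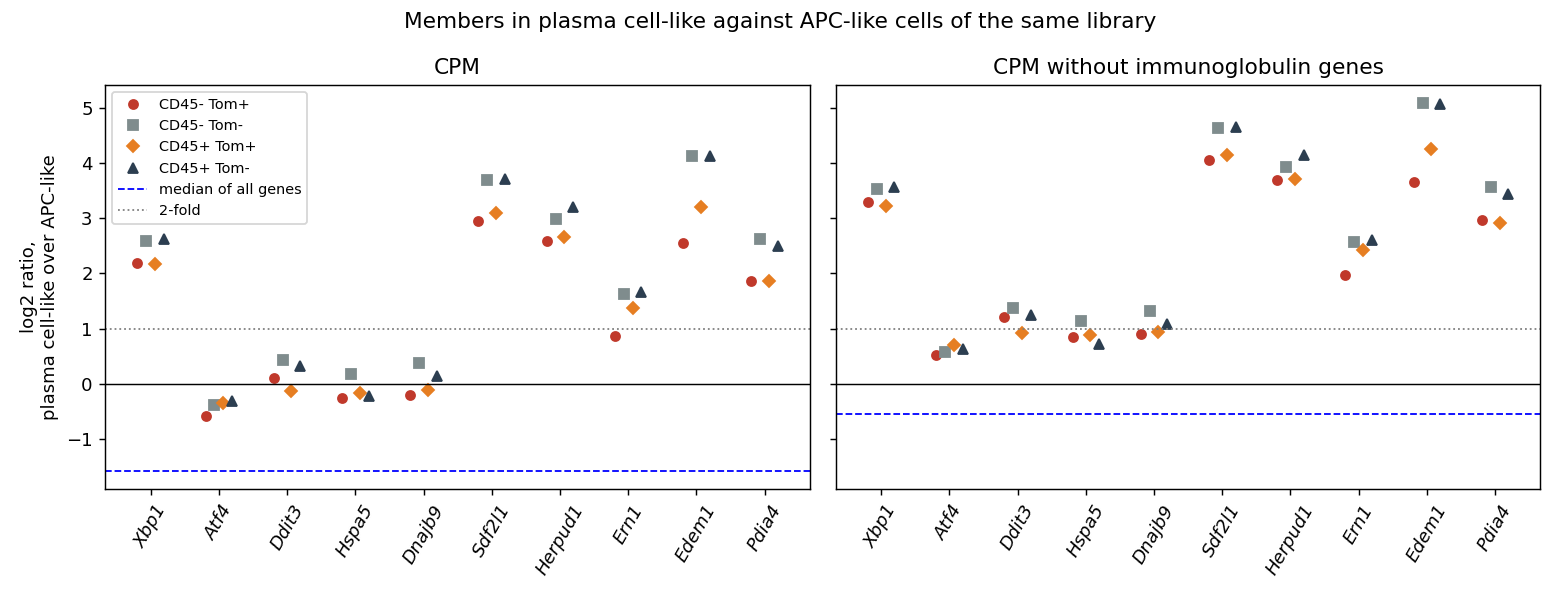
Log2 ratio of each gene in plasma cell-like over APC-like cells, 1 point per library, on CPM and on CPM without immunoglobulin genes. The dashed line marks the median of all genes and the dotted line 2-fold, and Xbp1, Sdf2l1, Herpud1, Edem1 and Pdia4 lie past 2-fold in all 4 libraries on both scales.

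The other chaperones and the PERK branch behaved differently. Hspa5 was at 924, 1250, 932 and 909 CPM in plasma cell-like cells and at 1105, 1100, 1048 and 1057 CPM in APC-like cells, so that 3 libraries were lower and the library labelled CD45- Tom- higher in plasma cell-like cells. Its median fold was 0.874 in CPM, but without immunoglobulin in the total it was 1.82, higher in all 4 libraries, and per cell it was 1.34. Dnajb9 (ERdj4), a co-chaperone of BiP, was at 77.7, 106, 79.7 and 95.3 CPM against 89.0, 81.8, 86.0 and 86.7 CPM. The class ranges overlapped, and its median fold moved from 1.01 in CPM to 2.02 without immunoglobulin.

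Atf4 was at 193, 227, 192 and 219 CPM in plasma cell-like cells and at 291, 295, 245 and 274 CPM in APC-like cells. It was lower in all 4 libraries in CPM (median log2 ratio -0.37), but its direction turned without immunoglobulin (0.59), after centring on the median of all genes (1.12) and as UMIs per cell (0.25). ATF4 is controlled largely by translation, which mRNA counts do not show. Ddit3, the CHOP gene, was at 34.4, 39.9, 33.0 and 39.99 CPM against 32.1, 29.7, 36.2 and 32.2 CPM, and the ranges overlapped. In UMIs per cell Ddit3 reached 1.26 to 1.51 in plasma cell-like and 0.683 to 0.907 in APC-like cells.

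The plasma cell-like and B cell-like classes were compared because B cells are the lineage from which plasma cells arise and do not secrete antibody at a high rate. Of the 10 genes, 6 were at least 2-fold higher in plasma cell-like than B cell-like cells in every library: Xbp1, Sdf2l1, Herpud1, Ern1, Edem1 and Pdia4, against 2.66% of all genes. The B cell-like class held 196, 208, 72 and 296 cells. Xbp1 was at 251, 70.4, 240 and 54.1 CPM there, 9.98-fold below plasma cell-like cells as the median, with folds from 5.20 to 24.8. The higher pair of B cell-like values came from the Tom+ libraries, in which immunoglobulin was 9.90% and 6.79% of B cell-like UMIs against 1.53% and 1.51% in the Tom- libraries, and its part in the Xbp1 level was not tested. Ern1 rested on only 5, 2, 2 and 7 UMIs in B cell-like cells, or 1.41 to 3.58 CPM, so no fold is given for it.

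Sdf2l1 lay at 19.0 to 64.1 CPM in B cell-like cells, 11.6-fold below plasma cell-like cells as the median. Edem1 (9.02-fold), Pdia4 (5.20-fold) and Herpud1 (4.69-fold) followed. Hspa5 was lower in B cell-like than in plasma cell-like cells of every library: it was at 530, 430, 469 and 411 CPM in B cell-like cells, and the fold of 1.74 to 2.91 became at least 2 in each library without immunoglobulin in the total, when 7 genes passed against 8.01% of all genes. Atf4 was 0.902-fold and Ddit3 1.17-fold as the median, with Ddit3 ranges that overlapped. Neither of these PERK-branch factors was 2-fold different in every library on either scale.

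Over the 12 named classes with at least 20 cells in 2 or more libraries, plasma cell-like cells had the highest median CPM for Xbp1, Sdf2l1, Herpud1, Edem1 and Pdia4, and for none of these did the range over libraries overlap that of the next class. The next class was mesothelial-like for Xbp1 (300 to 397 CPM) and Pdia4 (168 to 209 CPM), dendritic cell-like for Sdf2l1 (96.9 to 122 CPM), mast cell-like for Herpud1 (187 to 232 CPM) and neutrophil-like for Edem1 (107 to 222 CPM). The same 5 genes were at least 2-fold higher in plasma cell-like cells than in NK cell-, T cell-, macrophage-, mast cell-, neutrophil-, blood endothelial-, lymphatic endothelial- and mesothelial-like cells in every library compared, against 2.42%, 2.93%, 4.55%, 3.11%, 2.65%, 3.33%, 4.67% and 3.95% of all genes in the order of these classes. Against dendritic cell-like cells Ddit3 was added (3.94% of all genes). Atf4 was 2-fold lower against lymphatic endothelial-like cells in the 2 libraries that held them, as were 70.7% of all genes.

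For the remaining genes another class came first in CPM. Hspa5 was highest in mesothelial-like cells at 1100 to 1316 CPM, with APC-like cells next at 1048 to 1105 CPM and plasma cell-like cells after them at 909 to 1250 CPM, and these neighbours overlapped. Dnajb9 was highest in mesothelial-like cells at 150 to 176 CPM, above the next class without overlap. Both genes thus stood high in mesothelium, the lining epithelium of the fat pad. Ddit3 was highest in mast cell-like cells at 58.6 to 85.3 CPM, which overlapped the neutrophil-like range. Ern1 was highest in NK cell-like cells (25.0 to 63.5 CPM), followed by T cell-like and plasma cell-like cells with overlapping ranges. The NK cell-like values rested on only 17 to 29 Ern1 UMIs per library. Atf4 was highest in endothelial-like and mast cell-like cells, whose ranges overlapped, and plasma cell-like cells were ninth at 192 to 227 CPM.

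This order depended on the scale. Without immunoglobulin in the total, plasma cell-like cells came first for 9 of the 10 genes, all but Atf4, and as UMIs per cell for 8. A plasma cell-like cell carried 47.7 to 50.6 Xbp1 UMIs, against 5.13 to 7.01 in an APC-like cell and 0.385 to 2.14 in a B cell-like cell, where the median depth was 38843 UMIs for plasma cell-like cells, and by library 21446 to 23459 for APC-like and 5296 to 6506 for B cell-like cells. Hspa5 was at 34.0 to 44.6 UMIs per plasma cell-like cell and 25.3 to 26.3 per APC-like cell. Expressed per cell, Hspa5 therefore overlapped with mesothelial-like cells, which reached 46.3.

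**Figure D2:**
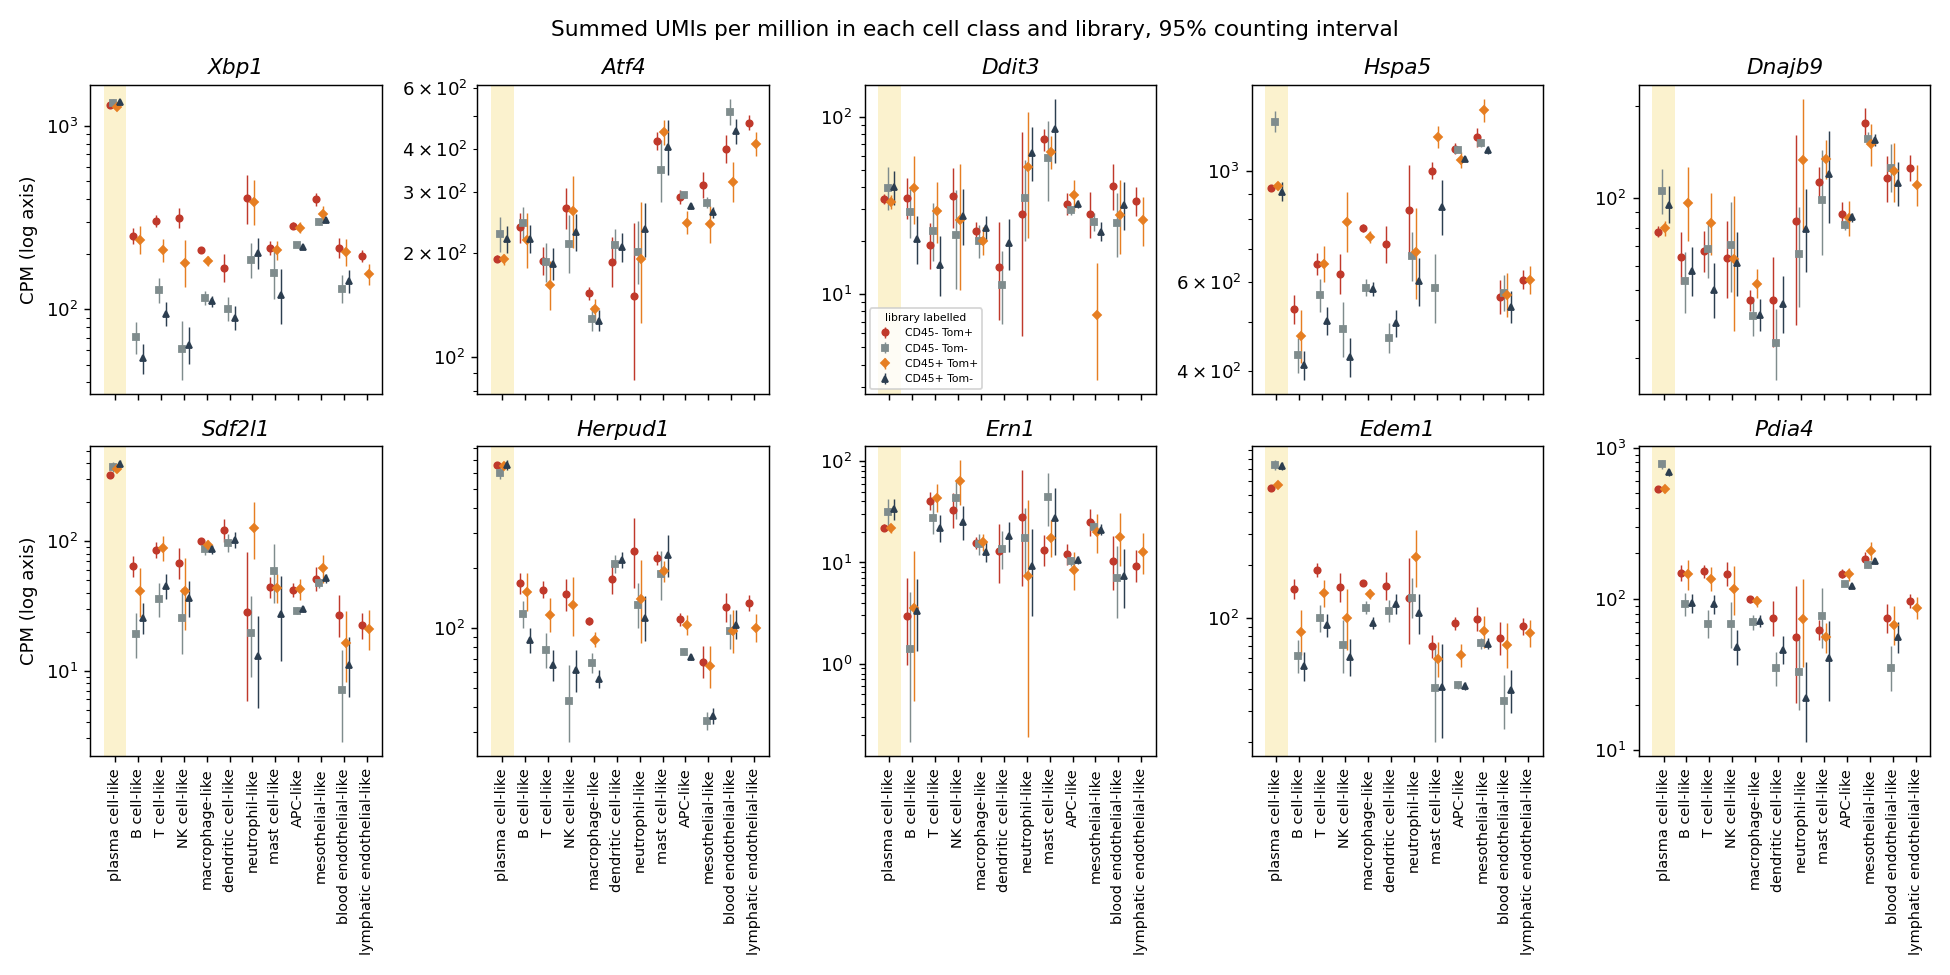
Level of each gene in CPM (log axis) in 12 cell classes, 1 marker per library with its 95% Poisson interval, plasma cell-like cells shaded. Xbp1, Sdf2l1, Herpud1, Edem1 and Pdia4 stand above every other class, whereas Atf4, Ddit3, Hspa5, Dnajb9 and Ern1 do not.

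Levels within the APC-like class varied little between its clusters. Of the clusters present in all 4 libraries, 1 had Hspa5 at 1212 to 1357 CPM and the other two at 939 to 1129 CPM, which did not overlap. Xbp1 lay at 215 to 316 CPM and Pdia4 at 111 to 162 CPM across the same clusters, with overlapping ranges. Dnajb9 lay at 65.0 to 81.6 CPM in the cluster whose leading gene was Thbs4, below the others at 83.6 to 111 CPM. Atf4 lay at 213 to 259 CPM in that cluster. It was at 295 to 344 CPM in the cluster led by Inmt, also without overlap. The higher Hspa5 cluster had Sdf2l1 at 35.8 to 46.1 CPM against 22.9 to 44.3 CPM in the others.

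The wider pathway was read from lists of genes grouped by role, each described by its count and its median log2 ratio, plasma cell-like over APC-like, beside -1.58 for all genes. The counts are of genes at least 2-fold higher or lower in every library, as were 4.48% and 56.1% of all genes. The lists were left out of the clustering, but the plasma cell-like class was named from raised plasma cell genes. High levels of genes typical of plasma cells, such as Mzb1 and Derl3, may follow from that naming and are no separate support. Genes of ER-associated degradation stood highest, with a median of 0.93 and 6 of 16 genes at least 2-fold higher in every library and 0 lower. Derl3, a channel component of degradation, was at 203 to 239 CPM in plasma cell-like against 1.56 to 16.1 CPM in APC-like cells, and Edem1, Edem2, Herpud1, Syvn1 and Sel1l made up the rest. The conjugating enzyme Ube2g2 was at the other end of the list, with a log2 ratio of -1.004.

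Among ER stress sensors (6 of 7 passed the filter) the median was 0.85. Eif2ak3, the PERK gene, lay at 61.5 to 76.7 CPM against 21.8 to 29.7 CPM, and Atf6 was the other sensor at least 2-fold higher throughout. The site proteases Mbtps1 (21.6 to 34.0 against 73.9 to 87.2 CPM) and Mbtps2 (3.59 to 5.91 against 10.1 to 11.3 CPM), which cleave ATF6, had lower levels in every library, by 2-fold throughout for Mbtps1.

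In the list of XBP1 and folding chaperones, 9 of 23 genes were higher, 5 lower, and the median was 0.43. Mzb1, a plasma cell chaperone for IgM assembly, differed most, at 2257 to 3352 CPM against 7.60 to 122 CPM. Sdf2l1, Creld2, Fkbp2, Xbp1, Fkbp11, Dnajb11, Manf and Hsp90b1 were the others that were higher. The lower ones included Canx, the calnexin lectin chaperone (108 to 142 against 273 to 338 CPM), Dnajc1, Dnajc10, Cnpy3 and Mesd, the last a chaperone of LDL receptor family proteins with a log2 ratio of -3.18.

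Disulfide exchange genes split as well, with 5 of 13 higher, 2 lower and a median of 0.52. Ero1lb, the oxidase that recharges disulfide isomerases, was at 189 to 210 CPM against 5.14 to 16.6 CPM, and the isomerase-like Txndc5 at 1867 to 2045 CPM against 225 to 345 CPM. Pdia3, the isomerase that works with calnexin, was at 157 to 210 CPM against 412 to 440 CPM, and P4hb, which is also a subunit of collagen prolyl hydroxylase, had a log2 ratio of -1.04. Pdia5, another family member, was at 0.0619 to 0.930 CPM in plasma cell-like and 20.7 to 26.6 CPM in APC-like cells.

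Translocation and secretion genes had a median of 0.24, with 9 of 30 higher and 4 lower. Sec11c, the catalytic subunit of signal peptidase, was at 1305 to 1609 CPM against 41.6 to 130 CPM, whereas its paralog Sec11a had a log2 ratio of -1.71. Ssr4, of the translocon-associated complex, was at 1865 to 2159 CPM against 273 to 412 CPM. Sec24d (-1.83) and Sec31a (-1.59), coat proteins of vesicles that leave the ER, and the retrieval receptor Kdelr3 (-3.17) were the other lower ones, and Kdelr2 was at -1.14 without reaching 2-fold in every library. Sec24d is a coat protein needed for collagen export.

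The PERK and ATF4 branch was mixed, with 2 of 14 genes higher, 4 lower and a median of -0.36 that turned to 0.65 without immunoglobulin. Chac1, an ATF4 target that degrades glutathione, was at 101 to 128 CPM in plasma cell-like cells against 0.259 to 11.4 CPM. Asns, asparagine synthetase, was at 28.8 to 46.5 CPM against 9.22 to 12.3 CPM, and Sesn2 and Psat1 had median log2 ratios of 1.04 and 1.08. Nupr1 (2.95 to 7.55 against 183 to 250 CPM), Atf3 (94.5 to 242 against 501 to 614 CPM), Stc2 and Vldlr were lower.

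Matrix production separated the classes the other way. Of the collagen folding genes, 0 of 18 were higher and 17 lower, with a median of -4.51. The lysyl hydroxylase Plod2 was at 361 to 380 CPM in APC-like cells and at most 2.21 CPM in plasma cell-like cells, and the prolyl isomerase Fkbp9 at 273 to 322 CPM and at most 4.43 CPM, while Tmed2, a general cargo receptor, was near equal (-0.06) and Mia3, an export receptor for collagen, was at -1.55. All 20 fibrillar collagen and matrix genes were lower, with a median of -8.39. Timp2 and Fn1 were the least different of them, and Postn (1076 to 1157 against 0.984 to 9.30 CPM) and Col15a1 the most.

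Immediate-early and heat shock genes, which respond to tissue dissociation, were also lower in plasma cell-like cells for 19 of 21 genes, against 56.1% of all genes. Their median was -2.42, with a summed level of 9715 to 10633 CPM against 35828 to 37964 CPM. Without immunoglobulin in the total, 11 of the 21 were lower, against 29.3% of all genes. The extremes were Ier3 (-5.50) and Hspa1b (-5.33) at one end and Hsp90ab1 (-1.17) and Jund (-0.45) at the other. Their part in the members' levels was not tested. Without immunoglobulin in the total, the medians were 1.94 for degradation, 1.87 for sensors, 1.51 for disulfide exchange, 1.46 for chaperones, 1.25 for translocation, -1.42 for dissociation stress, -3.45 for collagen folding and -7.38 for matrix, beside -0.55 for all genes.

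**Figure D3:**
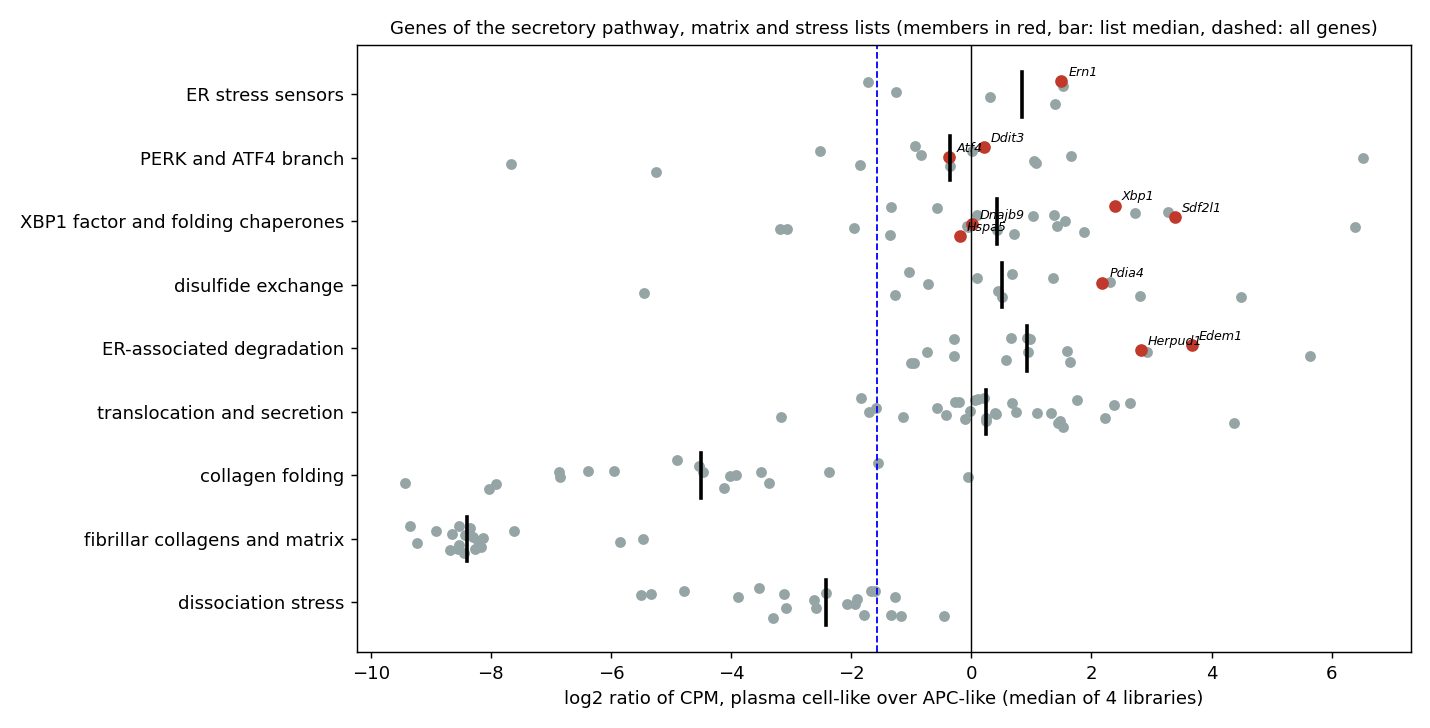
Log2 ratio in CPM, plasma cell-like over APC-like, of each gene in 9 lists, with the 10 genes in red and a bar at each list's median. The degradation and sensor lists lie around 0.93 and 0.85, and the collagen folding and matrix lists around -4.51 and -8.39.

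The reporter comparison asked whether the 10 genes differed between Tom+ and Tom- libraries within 1 cell class, with the CD45- and the CD45+ pair kept apart. None of the 10 genes was at least 1.5-fold higher or lower in both pairs in APC-like cells, where 1.15% of all genes were higher and 0.423% lower. Edem1 passed in the CD45- pair (log2 ratio 1.17) and lay just below the cut in the CD45+ pair (0.580). The median log2 ratio of the 10 genes was 0.22 and 0.21 in the CD45- and CD45+ pairs, beside -0.04 and -0.05 for all genes. In plasma cell-like cells none passed either (0.982% of all genes higher and 4.91% lower), with medians of -0.33 and -0.22 beside -0.23 and -0.19 for all genes. On the scale without immunoglobulin the plasma cell-like medians were -0.12 and -0.06.

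In APC-like cells the genes with the higher Tom+ levels were those most enriched in plasma cell-like cells. Edem1 had log2 ratios of 1.17 (95% interval 1.02 to 1.31) and 0.58 (0.34 to 0.81) in the CD45- and CD45+ pairs. Sdf2l1 had 0.54 and 0.50, Herpud1 0.54 and 0.54, Xbp1 0.36 and 0.36 and Pdia4 0.22 and 0.26, and no interval of these reached 0. Hspa5 was level in both pairs, at 0.01 (-0.03 to 0.04) and -0.01 (-0.07 to 0.04). Atf4, Ddit3, Dnajb9 and Ern1 lay between -0.32 and 0.23, and of these only Atf4 in the CD45+ pair had an interval that left out 0. The same Tom+ APC-like cells carried 3.09% and 4.03% immunoglobulin UMIs, against 0.143% and 0.174% in the Tom- libraries.

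Plasma cell-like cells showed lower CPM for several genes in the Tom+ libraries. Pdia4 had log2 ratios of -0.54 and -0.37, Edem1 -0.42 and -0.35, and Ern1 -0.53 and -0.62, with intervals that left out 0. Each became smaller without immunoglobulin, at -0.34 and -0.20 for Pdia4, -0.22 and -0.18 for Edem1 and -0.33 and -0.45 for Ern1. Xbp1 (-0.03 and -0.09) and Herpud1 (0.14 and -0.01) were near level and their signs in CPM turned without immunoglobulin in at least 1 pair. Hspa5 differed between the pairs, at -0.44 and 0.04. Only 38 and 57 plasma cell-like cells stood on the Tom- side.

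**Figure D4:**
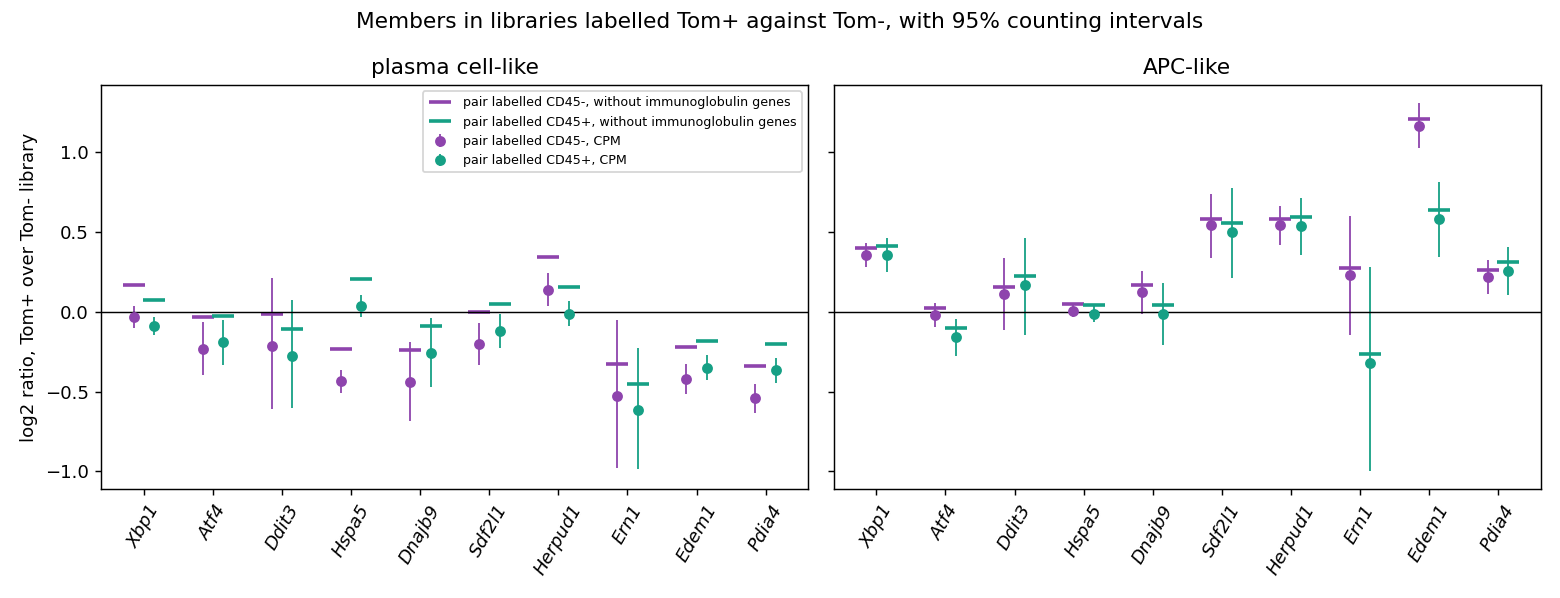
Log2 ratio of each gene, Tom+ over Tom- library, in plasma cell-like and APC-like cells, with circles for CPM, bars for the 95% counting interval and dashes for the scale without immunoglobulin. In APC-like cells Xbp1, Sdf2l1, Herpud1, Edem1 and Pdia4 lie above 0 in both pairs, and in plasma cell-like cells most points lie below 0 in CPM.

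Outside APC-like and plasma cell-like cells, some of the 10 genes passed 1.5-fold in both pairs. In B cell-like cells Xbp1, Sdf2l1, Edem1 and Pdia4 were higher in the Tom+ libraries (4 of 9 genes tested, 2.27% of all genes). In T cell-like cells the higher genes were Xbp1, Sdf2l1, Herpud1 and Edem1 (3.46% of all genes), and in NK cell-like cells Xbp1, Herpud1, Edem1 and Pdia4 (4.52% of all genes). Xbp1 in NK cell-like cells went from 60.6 to 314 CPM in the CD45- pair and from 63.9 to 179 CPM in the CD45+ pair. In macrophage-like cells Xbp1 and Herpud1 were higher (1.33% of all genes), Xbp1 going from 116 to 212 CPM and from 110 to 184 CPM. Counts in the remaining classes were 1 or 2 of 10 genes and near the share of all genes in neutrophil-like (Xbp1 and Pdia4 higher, 14.4% of all genes), blood endothelial-like (Edem1 higher, 5.01%) and mast cell-like cells (Ern1 lower, 7.21%). Ern1 in mast cell-like cells rested on only 12 and 8 UMIs in the Tom- libraries. Herpud1 was higher in mesothelial-like cells (0.747% of all genes). The share of immunoglobulin UMIs was higher in the Tom+ library of the pair in each of these classes, at 6.48% to 9.90% in the B, T and NK cell-like classes of the Tom+ libraries against 0.317% to 1.64% in the Tom- libraries.

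The plasma cell-like profile of the same library was subtracted from each class at the class's share of immunoglobulin UMIs, and the Tom+ over Tom- ratios were taken again. In APC-like cells the medians of 0.22 and 0.21 became 0.05 and -0.12. In NK cell-like cells 0.92 and 0.82 became 0.31 and -0.003, in T cell-like cells 0.73 and 0.78 became 0.53 and 0.21, and in macrophage-like cells 0.32 and 0.34 became 0.18 and 0.15. Xbp1 in APC-like cells went from 0.36 and 0.36 to 0.03 and -0.10. Edem1 went from 1.17 and 0.58 to 0.75 and -0.92, so the pairs then differed in sign. The subtraction assumes that all immunoglobulin RNA in these classes came from plasma cell-like cells, B cell-like cells were left out because they make their own, and in APC-like cells it left the comparison with plasma cell-like cells at 5 of 10 genes.

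**Figure D5:**
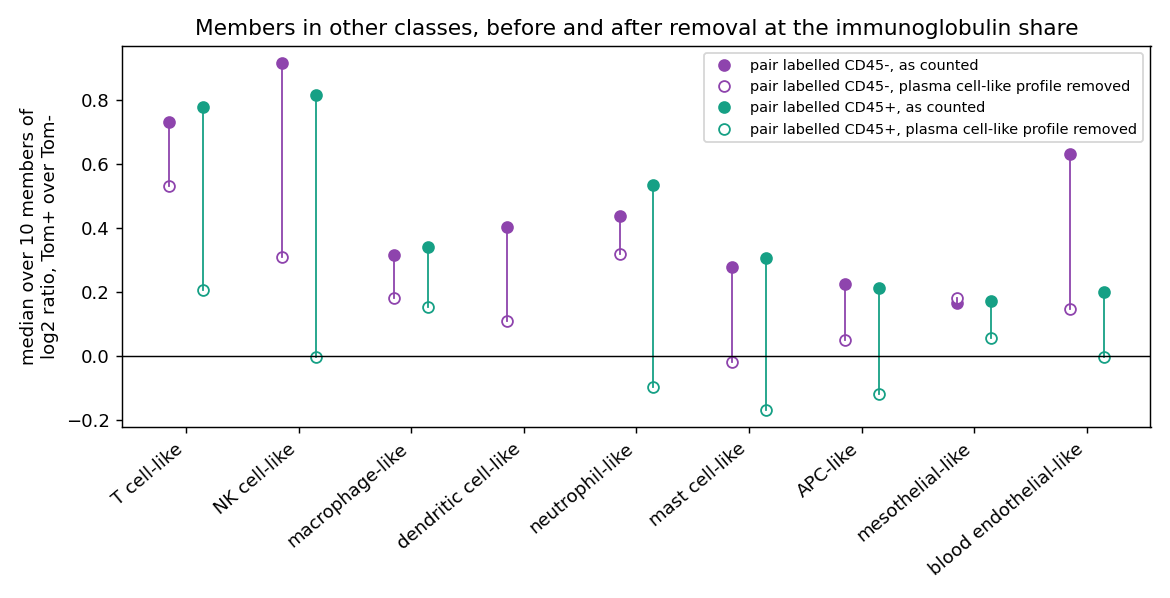
Median over the 10 genes of the log2 ratio, Tom+ over Tom- library, in each class and pair before (filled) and after (open) subtraction of the plasma cell-like profile. APC-like medians go from 0.22 and 0.21 to 0.05 and -0.12.

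Finally, the 10 genes were set beside all others by their pattern over 66 sums of 1 class or unnamed cluster in 1 library, as Pearson r of log2(CPM + 1) across 10999 genes. These sums share libraries and depth, so r is given as a description. Pdia4 was most like Manf (r = 0.94), Hsp90b1 and Creld2, all ER-resident. Xbp1 was most like Sel1l (0.93), Txndc5 and Fkbp2. Edem1 and Sdf2l1 shared Mrpl57, a mitochondrial ribosomal protein gene, as the nearest gene (0.91 and 0.89), followed by Sdf2l1 and Dnajb11 for Edem1 and by Sec61b and Dnajb11 for Sdf2l1. Herpud1 was nearest to Cacna1s (0.87), Sec11c and Ero1lb.

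The 5 genes that were not at least 2-fold above APC-like cells in every library had other neighbours and lower r in CPM. Hspa5 was nearest to Mt2 (0.78), Ift20 and Cnpy2, and Dnajb9 to Egr1 (0.79), Bcar1 and Kalrn. Ddit3 was nearest to Jund (0.71), Malat1 and H3f3b, and Atf4 to Arhgef28 (0.81), Stard13 and Ier2. Egr1, Jund and Ier2 are immediate-early genes of the dissociation list. Ern1 was nearest to Leprotl1 (0.67), Saraf and Znrf3. These r depended on the scale and moved in both directions without immunoglobulin in the total. In the order named, they became 0.75, 0.89 and 0.85 for Hspa5, and 0.61, 0.60 and 0.78 for Atf4.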

How the data were processed

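Per the labels and methods, gonadal fat was digested with Liberase, sorted by flow cytometry and run on 10x Genomics Chromium 3′ v3.1. The authors deposited raw UMI counts for every gene and barcode, as 1 matrix of whole numbers per library, made with Cell Ranger 3.0.2 on mm10 per the submitters' processing notes, without normalization. Counts after filters were used as deposited.

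The filter of the study (more than 1000 but fewer than 7000 genes, less than 8% of UMIs mitochondrial) was applied, and 4145, 4038, 1981 and 4818 barcodes passed. The highest Scrublet scores, 0.8% of barcodes per 1000, were removed as doublets (259, 364, 54 and 427). Cells were clustered together in scanpy 1.11.5 (2000 variable genes without the compared genes, 30 components, 15 neighbours, Leiden resolution 1 in leidenalg 0.10.2 with igraph 0.11.9). A marker counted as raised at 20 CPM and 4-fold the median cluster, a class needed 3 raised markers, and of 29 clusters 9 stayed unnamed. These thresholds were set after seeing the data, and the members and lists were chosen with earlier results of these data known. Names end in -like because they rest on transcripts alone.

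UMIs were summed per class and library with at least 20 cells and scaled to CPM (numpy 2.4.6, pandas 2.3.3), with exact Poisson and conditional exact 95% intervals (scipy 1.17.1). Ratios between classes were taken within each library and called at 2-fold in every library, or 1.5-fold in both pairs for Tom+ against Tom-, over genes of at least 5 CPM in either class. With 1 library per group and classes cut from the same cells, no p-value was computed. On simulated counts for 9607 genes, 100% of raised genes and 0% of unchanged genes were called. These shares are for simulated counts and give no error rate for the calls in the 4 libraries. The text names the 10 members, in each list the extremes and the genes at least 2-fold against the list median, and the 3 genes most like each member. Of the genes that this rule names, 1 is not reported here. Alternatives covered scaling, weighting, depth, filters, doublets, clustering, gates on marker UMIs, shared barcodes, each library left out, the fold and the low-value floor. Promoter windows are from RefSeq on GRCm38.p6.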

Additional observations from a re-analysis of the deposited data

Results flagged for a closer look

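For 5 genes every Tom+ over Tom- comparison in APC-like cells was above 0 and every one in plasma cell-like cells below 0 in CPM, and the difference between the classes was not tested. Xbp1 had log2 ratios of 0.357 and 0.357 in APC-like cells and -0.0349 and -0.0905 in plasma cell-like cells, for the pairs labelled CD45- and CD45+, and the plasma cell-like values were 0.17 and 0.08 without immunoglobulin in the total. Ddit3 had 0.113 and 0.167 against -0.213 and -0.275, and the counting interval of each of these reached 0. Sdf2l1 had log2 ratios of 0.541 and 0.499 in APC-like cells and -0.203 and -0.120 in plasma cell-like cells. Without immunoglobulin the plasma cell-like values of Sdf2l1 were -0.0012 and 0.046, so the opposite signs were not kept. Edem1 had 1.17 and 0.580 against -0.421 and -0.351, and Pdia4 had 0.217 and 0.256 against -0.542 and -0.367. Edem1 and Pdia4 kept opposite signs without immunoglobulin, when the plasma cell-like values were -0.22 and -0.18 for Edem1 and -0.34 and -0.20 for Pdia4. After subtraction of the plasma cell-like profile, the APC-like values were -0.14 and -0.79 for Sdf2l1, 0.75 and -0.92 for Edem1 and -0.01 and -0.07 for Pdia4.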

How the results depend on the processing

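The count of genes at least 2-fold higher in plasma cell-like than APC-like cells was 5, ran from 5 to 6 with each library left out, and rose to 10 after centring on the median of all genes. The median log2 ratio of the 10 genes, 1.84, was 2.85 without immunoglobulin, 3.39 centred, 2.46 in UMIs per cell and 1.62 to 2.06 with a library left out. Against B cell-like cells the count of 6 became 10 centred, 10 in UMIs per cell and 3 at 4-fold. Plasma cell-like was the highest class for 5 genes, 9 without immunoglobulin, 8 in UMIs per cell and 8 with classes gated on marker UMIs. For Tom+ against Tom- in APC-like cells, thinning to 2000 UMIs moved the CD45- median from 0.22 to 0.62, and subtraction of the plasma cell-like profile gave 0.049 and turned the CD45+ median to -0.12. In plasma cell-like cells the CD45- median of -0.33 became -0.12 without immunoglobulin and -0.069 centred, and the CD45+ median of -0.22 became -0.059, -0.023 and, with gates, -0.32. Among single genes the log2 ratio of Atf4 turned sign to 0.59 without immunoglobulin, 1.12 centred and 0.25 per cell, and that of Hspa5, -0.19, to 0.87, 1.42, 0.43 and, with gates, 0.13. Ddit3 (0.20) turned to -0.10 on thinned cells, and Dnajb9 (0.01), within the spread between libraries of 0, was below 0 under 8 of 16 alternatives and above it under 8. The other alternatives for the counts and medians kept the direction and stayed within 1.5 times a count or the spread between libraries (93 values). Of the single-gene values 120 stayed within the spread and 26 moved further, with the sign kept. The subtraction and a requirement of 20% immunoglobulin UMIs in plasma cell-like cells were chosen after seeing the data. Causes other than the change of scale itself were not tested. Each sort is 1 library, so the Tom+ and Tom- libraries were compared within each CD45-labelled pair by their values, and no fit with the CD45 label as a block, which would leave 1 residual degree of freedom, was run. Intervals cover counting error only, 38 and 57 plasma cell-like cells limit the Tom- side, and Ern1 in B cell-like cells rests on 7 UMIs or fewer per library.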

Other observations

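Clusters 17, 20, 22 and 24 were left unnamed. Clusters 17, 22 and 24 had at least 8 plasma cell markers raised together with markers of macrophages, APCs or mesothelium, and cluster 20 had all 8 cycling markers raised with those of macrophages. Immunoglobulin genes took 40.9%, 25.3%, 34.1% and 30.3% of their UMIs. In the libraries where they held at least 20 cells, Xbp1 lay at 587 to 991 CPM, between the APC-like and plasma cell-like ranges, and Sdf2l1 at 207 to 393 CPM, above the APC-like range. These clusters entered no comparison between classes, and their sums were part of the patterns over class and library. Within the plasma cell-like class, 4 cells had IgA and 3 had IgG as the leading heavy chain, too few for levels of their own.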
